A study of Mus musculus with 12 samples.

Results

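The comparison described here is the effect of IL-1b in mouse colonoids that also received IL-22, which sets 3 libraries from colonoids given IL-1b and IL-22 together against 3 libraries from colonoids given IL-22 alone. These 6 libraries were chosen by their labels, out of 12 in the series. All genes were read and no gene was chosen in advance by its values. Colonoids are hollow epithelial cultures grown from colon stem cells. Here they came from colon crypts of C57BL/6 mice and were embedded in Matrigel, in a medium with EGF and conditioned medium from L-WRN cells, which secrete Wnt3a, R-spondin and noggin. Wnt and growth factor signals were thus supplied to every group. The IL-22 group received 1 ng/mL IL-22 for 12 h, and the combined group received 100 ng/mL IL-1b with 1 ng/mL IL-22 for the same 12 h. The other 6 libraries came from unstimulated colonoids and from colonoids given 100 ng/mL IL-1b alone, 3 of each. Whether the 3 replicates of a group are separate mice or cultures is not in the labels, so the p-values measure only the spread between these libraries, which may be technical.

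IL-1b is a cytokine of early inflammation. It binds IL1R1 with its partner IL1RAP, recruits MYD88 and the IRAK kinases, and activates NF-kB and the MAP kinases. IL-22, made by innate lymphoid cells and T helper cells, binds IL22RA1 and IL10RB on epithelial cells and signals through JAK1, TYK2 and STAT3. In the colon epithelium IL-22 is known for inducing antimicrobial proteins, fucosylation and repair genes, and IL-1b for inducing neutrophil chemokines and innate defence genes.

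The table held 35869 gene symbols with whole-number counts. Library totals ran from 4703902 to 5804033 counts over the 12 libraries. The 3 IL-22 libraries held 4911804, 4728048 and 5425743 counts and the 3 combined libraries 5002273, 5262713 and 4703902. Values below are CPM, counts scaled to a common library size, with edgeR's trimmed mean of M-values (TMM), and 13987 genes had enough counts to be tested. The fit used all 12 libraries, with 1 mean per group. A gene is called when its adjusted p in edgeR's quasi-likelihood test (Benjamini-Hochberg over all genes tested) was under 0.05, and a log2 fold change is that of the combined group over the IL-22 group, with its standard error (SE), unless another is named. The 18 epithelial markers checked, such as Epcam and Cdx2, summed to between 5190 and 5900 CPM in the IL-22 libraries and between 5420 and 5620 CPM in the combined libraries, and none was at 0. On the first principal component of the 6 libraries, which held 31.9% of the variance, the IL-22 libraries lay at -4.50, -24.78 and -13.89 and the combined libraries at 5.98, 12.29 and 24.89.

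Adding IL-1b to IL-22 raised 9 genes and lowered 2 beyond the threshold in these colonoids. Of the called genes, S100a9, Lcn2, Mmp7 and Ccl20, which encode antimicrobial proteins, a protease and a chemokine, had the largest log2 fold changes. C3, Nos2, Prl2a1, Clca3a1 and Clca3b also rose. Cyp2d13 and 9130208D14Rik fell. In all, 11 of 13987 genes were called (0.0786% of genes tested), 9 of them higher (0.0643%) and 2 lower (0.0143%). All 9 higher genes passed a 2-fold change (0.0643%) and neither lower gene did. The median log2 fold change over all genes tested was 0.001. With so small a share of genes called, a gene list without a called member is no result about that list.

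**Figure D1:**
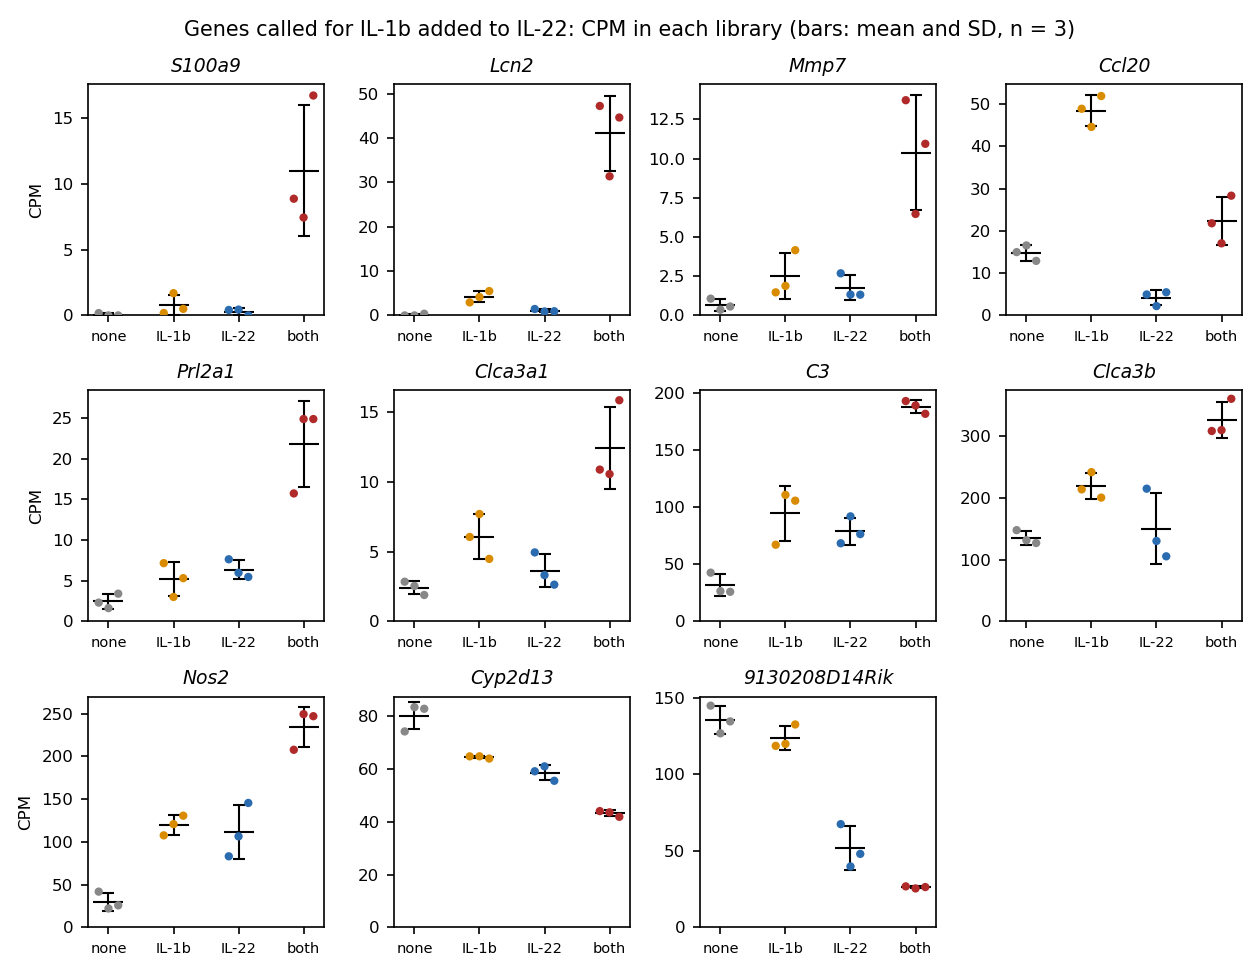
CPM (vertical axis, linear, from 0) of each called gene in the 12 libraries, by group on the horizontal axis: unstimulated (none), IL-1b, IL-22 and both. Points are libraries and bars show the mean and SD of 3 libraries; in each panel the combined libraries lie wholly above, or for Cyp2d13 and 9130208D14Rik wholly below, the IL-22 libraries.

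The number of calls depended on the test and on single libraries. DESeq2's Wald test on the same counts called 85 genes (0.608%), 28 higher (0.2%) and 57 lower (0.408%), among them all 11 above. Unadjusted p-values under 0.05 were found for 1440 genes (10.3%). With total counts in place of TMM the calls were 9 higher and 5 lower, so that 64.3% of calls were higher, against 81.8% in the main fit. Leaving out IL-22 replicate 1 gave 72 calls, IL-22 replicate 2 gave 5 and IL-22 replicate 3 gave 4. Leaving out combined replicate 1 gave 28 calls, combined replicate 2 gave 4 and combined replicate 3 gave 3. Lcn2, S100a9 and Ccl20 were called in all 16 alternative fits that gave them a value, and these are the 3 genes whose call rested on no single one of the 6 libraries.

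**Figure D2:**
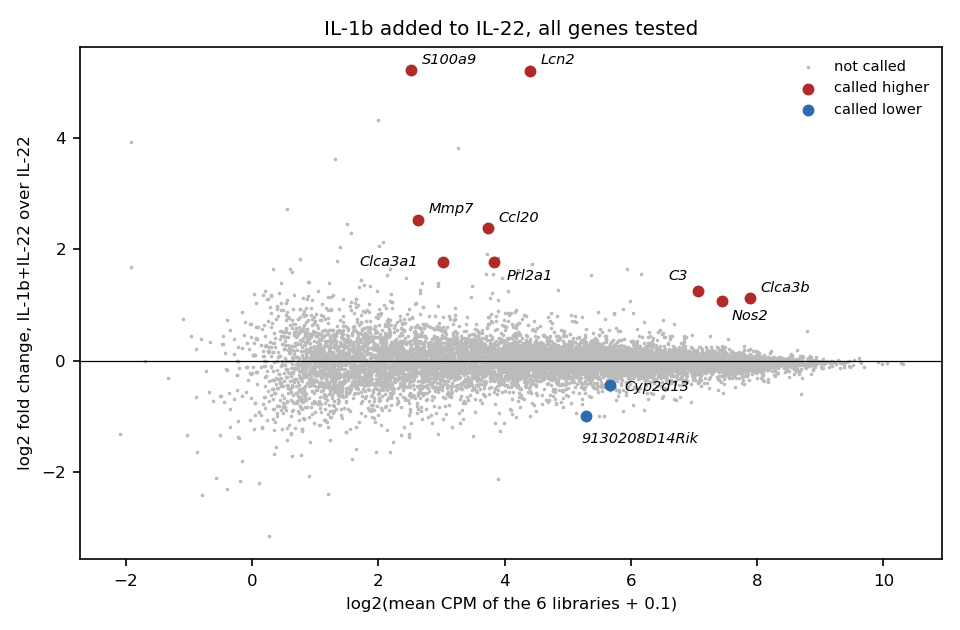
Log2 fold change of the combined group over the IL-22 group (vertical axis) against the log2 of the mean CPM of the 6 libraries plus 0.1 (horizontal axis), 1 point per gene tested. The 9 genes called higher are red, the 2 called lower are blue and grey points were not called; S100a9 and Lcn2 lie above 5 on the log2 scale.

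Lcn2 (GRCm38 chr2:32384633-32388252, minus strand) encodes lipocalin 2, a secreted protein that binds bacterial siderophores and so withholds iron. Its level was 1.45, 0.886 and 0.943 CPM with IL-22 and 47.2, 31.4 and 44.6 CPM with both cytokines. The groups were far apart, and the lowest combined library stood well above every IL-22 library. The log2 fold change was 5.20 ± 0.32 (SE, adjusted p = 2.55e-06), and over the summed counts the ratio was 37.5 (16 against 602 counts, 95% interval 22.9 to 66.0, for counting error only). IL-1b alone gave 2.94, 4.14 and 5.49 CPM, also below every combined library. Unstimulated libraries held 2 Lcn2 counts in all.

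S100a9 (chr3:90692632-90695721, minus strand) encodes the larger subunit of calprotectin, a zinc- and manganese-binding antimicrobial protein best known from neutrophils. It had 2, 2 and 0 counts with IL-22 and 44, 38 and 78 counts with both cytokines, or at most 0.443 CPM against at least 7.45 CPM. Every combined library was higher than every IL-22 library. The log2 fold change was 5.21 ± 0.65 (SE, adjusted p = 0.00574), and the ratio of summed counts was 39.8 (95% interval 15.3 to 148, for counting error only). S100a8, the gene of its partner subunit, was at 0.619, 3.54 and 2.83 CPM with IL-22 and 2.83, 4.7 and 6.65 CPM with both. The S100a8 groups met, and its log2 fold change of 1.01 ± 0.47 was not called (adjusted p = 0.492).

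Because S100a9 and Lcn2 are also leukocyte genes, leukocyte markers were read in the same libraries. The neutrophil gene Mpo and the myeloid gene Tyrobp had 0 counts in all 12 libraries. Other myeloid markers were present. Itgam had 19, 16 and 15 counts with IL-22 and 12, 20 and 15 with both, and its groups overlapped. Csf1r had 3 counts in all with IL-22 and 3 with both. Ptprc, which encodes the pan-leukocyte protein CD45, had 4, 9 and 2 counts with IL-22 and 2, 9 and 6 counts with both. Laptm5, a lysosomal membrane gene of leukocytes, had 8, 10 and 3 counts with IL-22 and 2, 14 and 25 with both, and its groups overlapped. Both had more counts with IL-1b alone, at 104, 20 and 12 counts for Ptprc and 130, 28 and 32 for Laptm5, against 4 and 10 counts in all over the unstimulated libraries, though neither difference was called (adjusted p = 0.159 and 0.146). Mpo and Tyrobp had 0 counts in these same IL-1b libraries, so their zeros do not show that leukocyte RNA was absent. The part of leukocyte transcripts in the results was not tested. The 26 immune markers summed to between 394 and 467 CPM with IL-22 and between 387 and 402 CPM with both, with 10 to 14 and 8 to 13 of them at 0. Most of that sum came from genes such as Ly6g (137.9 to 169 CPM with IL-22) and Cd14, which were also present in unstimulated libraries.

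The 3 called genes with the largest log2 fold changes, with Ccl20, are shown by the sequence before their start, read from RefSeq promoters on GRCm38.p6, 5′ to 3′ on the gene's strand and ending 1 base before the annotated start. Capitals mark matches on either strand. For C/EBP the core TTGCNNAA was searched. For AP-1 the letters were TGANTCA. The TATA box was sought as TATAAA, and NF-kB by its usual consensus. S100a9 is chr3:90695722-90695971 (minus strand), Mmp7 is chr9:7691840-7692089 (plus strand) and Ccl20, added after its values were seen, is chr1:83116516-83116765 (plus strand). For Lcn2 (minus strand), whose window lies largely in an annotated exon, only the 28 bases chr2:32387938-32387965 around the match are given.
S100a9: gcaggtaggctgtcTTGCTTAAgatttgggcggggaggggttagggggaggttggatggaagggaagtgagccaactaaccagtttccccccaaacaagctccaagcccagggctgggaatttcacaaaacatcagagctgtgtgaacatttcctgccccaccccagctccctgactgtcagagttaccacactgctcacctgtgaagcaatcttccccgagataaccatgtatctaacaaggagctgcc
Lcn2: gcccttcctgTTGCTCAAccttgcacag
Mmp7: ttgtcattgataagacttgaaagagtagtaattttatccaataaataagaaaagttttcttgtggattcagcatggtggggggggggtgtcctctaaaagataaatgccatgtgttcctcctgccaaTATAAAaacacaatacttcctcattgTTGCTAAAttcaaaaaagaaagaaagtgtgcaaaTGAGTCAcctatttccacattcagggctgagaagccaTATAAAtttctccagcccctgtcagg
Ccl20: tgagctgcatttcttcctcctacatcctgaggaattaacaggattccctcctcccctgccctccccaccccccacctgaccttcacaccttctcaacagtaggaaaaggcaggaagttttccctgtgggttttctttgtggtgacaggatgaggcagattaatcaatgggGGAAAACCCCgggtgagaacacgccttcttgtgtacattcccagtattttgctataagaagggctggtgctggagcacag
The C/EBP core stands at -236 to -229 in S100a9, -216 to -209 in Lcn2 and -97 to -90 in Mmp7. Mmp7 also holds an AP-1 match at -63 to -57 and TATA matches at -123 to -118 and at -26 to -21. Ccl20 holds an NF-kB match at -80 to -71. None of these matches overlaps another. Of the 11 called genes, 8 had a promoter entry. The C/EBP core was in 4 of the 8 (C3, Lcn2, Mmp7 and S100a9), against 9.57% of 32841 promoters of the same length. AP-1 was in 2 (Clca3b and Mmp7), against 6.75%, and NF-kB in 1, against 3.9%. In the Clca3b window 55 bases lie in an annotated exon, and its AP-1 match at -58 to -52 reaches into that exon. In the Lcn2 window, counted above, 197 bases lie in annotated exons. A match of TTCNNNGAA, a STAT site form, was in 1 (Prl2a1), against 7.02%. These are matches of letters only, and no binding was measured.

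The antimicrobial list had 27 tested members, of which Lcn2, S100a9 and Nos2 were called higher and none lower. Of all genes tested, 0.0643% were called higher and 0.0143% lower. In 9 of the 27 (33.3%) every combined library lay above every IL-22 library, against 6.45% of all genes tested, and in none did it lie below, against 5.61%. The list's median log2 fold change was 0.075, against 0.001 over all genes. Unadjusted p-values under 0.05 were found upwards for 10 members (37%, against 4.28% of all genes) and downwards for none (against 6.01%). Reg3g, a C-type lectin that IL-22 is known to induce, was at 12.0, 8.20 and 9.62 CPM with IL-22 and 46.4, 23.1 and 30.5 CPM with both. Its groups were apart, but the log2 fold change of 1.74 ± 0.55 was not called (adjusted p = 0.281). Reg3b, its neighbour, was at 36.5, 29.9 and 47.0 CPM with IL-22 and 53.5, 54.3 and 48.3 CPM with both (log2 fold change 0.46 ± 0.54, adjusted p = 0.831). The Reg3b groups were apart too. The fit draws its spread from all 12 libraries, and the unstimulated ones were uneven for both genes. They held 42, 0 and 0 counts of Reg3g and 109, 1 and 0 of Reg3b. The SE and adjusted p thus do not measure the spread of the 6 compared libraries alone.

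Ccl20 (chr1:83116766-83119167, plus strand), the chemokine that draws CCR6-bearing lymphocytes and dendritic cells to the mucosa, was at 4.96, 2.21 and 5.47 CPM with IL-22. With both cytokines it was at 21.8, 17.1 and 28.3 CPM. The groups did not overlap, and the log2 fold change was 2.38 ± 0.25 (SE, adjusted p = 0.00118). The order of the 4 groups differed from that of Lcn2. Ccl20 was at 14.8 ± 1.83 CPM in unstimulated colonoids and 48.5 ± 3.67 CPM with IL-1b alone (SD, n = 3), so that the IL-22 libraries were the lowest of all and the combined libraries lay between the unstimulated and the IL-1b libraries.

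No gene on the list of neutrophil and myeloid chemokines and growth factors was called, where 0.0786% of all genes were. In 3 of its 8 tested members (37.5%, against 6.45% of all genes) the groups were wholly apart upwards. The list's median log2 fold change was 0.844. Cxcl5 was at 45.0, 31.7 and 44.7 CPM with IL-22 and 75.7, 64.9 and 117.4 CPM with both (log2 fold change 1.08 ± 0.29, adjusted p = 0.195). Cxcl2 was at 1.65, 1.77 and 1.13 CPM against 7.06, 4.51 and 8.58 CPM (2.14 ± 0.50, adjusted p = 0.124), and Csf1, a macrophage growth factor, had 0, 4 and 1 counts against 10, 14 and 11 (2.71 ± 0.61, adjusted p = 0.113). Cxcl1 overlapped by its lowest combined library, at 12.6 CPM, under the highest IL-22 library, at 13.6 CPM (0.78 ± 0.25, adjusted p = 0.296). Csf3, Il23a and Il17c had too few counts to be tested, with sums of 5, 3 and 3 counts over the combined libraries and 0, 5 and 0 over the IL-22 libraries.

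C3 (chr17:57203970-57228136, minus strand), the central complement protein, was at 68.5, 92.2 and 76.6 CPM with IL-22 and at 193, 189 and 182 CPM with both. Its combined libraries lay close together and all stood above the IL-22 libraries. The log2 fold change was 1.25 ± 0.17 (SE, adjusted p = 0.0151). The call was lost without IL-22 replicate 3 (adjusted p = 0.0627), combined replicate 2 (0.0557) or combined replicate 3 (0.0586), with log2 fold changes from 1.16 to 1.37 over all such fits. C3 was the 1 called gene among 11 tested complement genes (0.0786% of all genes were called), whose median log2 fold change was -0.045.

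No acute-phase gene was called, although several had higher values with both cytokines. Saa3 was at 43.8, 37.4 and 39.8 CPM with IL-22 and 79.5, 72.3 and 77.7 CPM with both (log2 fold change 0.92 ± 0.28, adjusted p = 0.253). In the fit of only the 6 libraries compared, Saa3 had an adjusted p of 0.00603. The main fit also takes in the spread of the unstimulated libraries, which held 120, 131 and 20 Saa3 counts. Lrg1, a STAT3-responsive glycoprotein gene, was at 42.7, 45.0 and 25.6 CPM against 77.5, 61.0 and 65.9 CPM (0.86 ± 0.18, adjusted p = 0.0992). Lrg1 was at or under 0.356 CPM in every library without IL-22. In 3 of 7 tested acute-phase genes (42.9%, against 6.45% of all genes) the groups were wholly apart upwards, with a list median of 0.381.

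Nos2 (chr11:78920787-78960254, plus strand), the inducible nitric oxide synthase, was at 83.2, 106.5 and 145.6 CPM with IL-22. With both cytokines it was at 207.8, 249.5 and 247.1 CPM. The IL-22 libraries were widely spread but all lay below the combined libraries, with a log2 fold change of 1.07 ± 0.18 (SE, adjusted p = 0.046). The call was lost without IL-22 replicate 2 (adjusted p = 0.217), combined replicate 2 (0.118) or combined replicate 3 (0.192). It was also lost with DESeq2's size factors. Unstimulated colonoids held 29.9 ± 10.5 CPM of Nos2 and colonoids with IL-1b alone 119.7 ± 11.6 CPM (SD, n = 3).

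Nos2 was the only called gene of 28 tested members of the oxidase and oxidant defence list (0.0786% of all genes were called). Of the 28, 8 (28.6%, against 6.45% of all genes) had groups wholly apart upwards. Downwards there were 2 (7.14%), near the 5.61% of all genes. Duox2, an oxidase that makes hydrogen peroxide at the epithelial surface, was at 344, 406.9 and 339.8 CPM with IL-22 and 454, 574 and 546 CPM with both (log2 fold change 0.53 ± 0.12, adjusted p = 0.117, and 0.00898 by DESeq2). Duoxa2, the factor that matures it, had 0.47 ± 0.13 (adjusted p = 0.195), and Duoxa2 shares exon bases with Duoxa1. Among 9 genes gathered after the values were seen, oxidases with their partners and Nos2, all 9 had positive log2 fold changes. Of these, 6 had groups wholly apart upwards (against 6.45% of all genes). Nos2, already called, is in both counts. Cyba, the shared membrane subunit, had 0.34 ± 0.07 (adjusted p = 0.0959) and Noxa1, the NOX1 activator, 0.44 ± 0.11 (adjusted p = 0.143, and 0.0427 without IL-22 replicate 1).

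Mmp7 (chr9:7692090-7699585, plus strand), matrilysin, is a protease known for activating defensins in Paneth cells of the small intestine and for expression in inflamed or neoplastic colon. It was at 2.68, 1.33 and 1.32 CPM with IL-22 and 13.7, 6.47 and 10.9 CPM with both. All combined libraries were above all IL-22 libraries, with a log2 fold change of 2.53 ± 0.41 (SE, adjusted p = 0.0383). The call was lost without IL-22 replicate 2 (adjusted p = 0.217), IL-22 replicate 3 (0.117), combined replicate 1 (0.0717) or combined replicate 3 (0.165). Mmp7 shares exon bases with AV064505, and the strand used in counting is not given, so reads of the pair may be mixed. Of the 9 tested members of the Paneth and deep crypt list, Mmp7 was the only one called, and of the 24 tested members of the wound repair list likewise. Of all genes tested, 0.0786% were called.

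Prl2a1 (chr13:27801654-27808729, plus strand), a gene of the prolactin family known mostly from placenta, was at 7.64, 5.98 and 5.47 CPM with IL-22 and 15.7, 24.9 and 24.9 CPM with both. The groups did not meet, and the log2 fold change was 1.78 ± 0.28 (SE, adjusted p = 0.0335). The call was lost without IL-22 replicate 2 (adjusted p = 0.193), IL-22 replicate 3 (0.098), combined replicate 2 (0.11) or combined replicate 3 (0.165).

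Clca3a1 (chr3:144729677-144760977, minus strand) and Clca3b (chr3:144822623-144849357, minus strand) belong to the CLCA family (calcium-activated chloride channel regulators), whose genes lie together on chromosome 3 and whose best known member, Clca1, processes goblet cell mucus. Clca3a1 was at 4.96, 3.32 and 2.64 CPM with IL-22 and 10.9, 10.6 and 15.9 CPM with both, a log2 fold change of 1.77 ± 0.28 (SE, adjusted p = 0.0335). Clca3b was at 214.5, 130.0 and 105.2 CPM against 307.7, 309.1 and 359.8 CPM, a log2 fold change of 1.12 ± 0.18 (SE, adjusted p = 0.0353). For both genes every combined library was above every IL-22 library. Each call was lost without IL-22 replicate 2 (adjusted p = 0.193 for Clca3a1 and 0.216 for Clca3b) or replicate 3 (0.098 and 0.0651). Each was also lost without combined replicate 2 (0.0598 and 0.076) or replicate 3 (0.165 and 0.165).

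The other members of the CLCA family, gathered after the values were seen, were not called. Clca3a2 was at 10.1, 4.43 and 2.08 CPM with IL-22 and 18.6, 13.3 and 30.5 CPM with both (1.91 ± 0.39, adjusted p = 0.0959, called by DESeq2, and by edgeR without IL-22 replicate 1 with an adjusted p of 0.0121). Clca1 had a log2 fold change of -0.08 ± 0.07, Clca4a of -0.09 ± 0.10 and Clca4b of 0.09 ± 0.10, with overlapping groups in each. The tests of these family members do not compare them with one another. Reads of such near copies may be shared between them, and Clca3a1 shares exon bases with Gm34866.

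Cyp2d13, listed by RefSeq as a transcribed pseudogene of the cytochrome P450 2d cluster (chr15:82636750-82642045), was at 59.0, 60.9 and 55.5 CPM with IL-22 and 44.0, 43.5 and 41.8 CPM with both. The groups were narrow and apart, with a log2 fold change of -0.44 ± 0.07 (SE, adjusted p = 0.0383). The call was lost without IL-22 replicate 2 (adjusted p = 0.193), IL-22 replicate 3 (0.0627), combined replicate 1 (0.0542), combined replicate 2 (0.115) or combined replicate 3 (0.196). Of 10 Cyp2d genes, gathered after the values were seen, 9 had negative log2 fold changes and 6 had groups wholly apart downwards (against 5.61% of all genes), with a median of -0.25. Cyp2d13, already called, is in both counts. Cyp2d22 was at 36.1, 39.9 and 30.2 CPM against 28.2, 17.8 and 16.1 CPM (-0.76 ± 0.17, adjusted p = 0.117, and 0.0131 without combined replicate 1). The members are near copies, so they are not independent readings.

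9130208D14Rik was named here after its values were seen. GENCODE annotates it as an unprocessed pseudogene (chr7:105824223-105831515, minus strand), and RefSeq as a misc_RNA over a longer span (chr7:105823257-105856011). Which of these was counted is not known. The level of 9130208D14Rik was 67.5, 39.9 and 48.1 CPM with IL-22 and 26.8, 25.5 and 26.4 CPM with both. The combined libraries nearly coincided and all lay below the IL-22 libraries. Its log2 fold change was -0.98 ± 0.15 (SE, adjusted p = 0.0335). The call was lost without IL-22 replicate 3 (adjusted p = 0.0627), combined replicate 2 (0.115) or combined replicate 3 (0.165). IL-22 alone already went with a lower level, since unstimulated colonoids held 135.5 ± 9.08 CPM and colonoids with IL-1b alone 123.8 ± 7.73 CPM (SD, n = 3).

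No member of the listed metabolic groups was called lower, although several had lower values with both cytokines. In the xenobiotic metabolism list 10 of 40 tested members (25%) had groups wholly apart downwards and none upwards, against 5.61% and 6.45% of all genes, and the list's median log2 fold change was -0.083. Gstm3, a glutathione transferase, was at 41.1, 47.4 and 43.2 CPM with IL-22 and 35.1, 30.2 and 28.8 CPM with both (-0.48 ± 0.10, adjusted p = 0.0955). Gstm3 was called without IL-22 replicate 1 (adjusted p = 0.0486) or combined replicate 1 (0.0471). Metal handling genes had 5 of 23 tested members (21.7%, against 5.61%) wholly apart downwards, with Slc11a2, the iron importer DMT1, at -0.59 ± 0.15 (adjusted p = 0.174). Mttp, needed for lipoprotein assembly, was at 32.6, 63.4 and 42.4 CPM against 25.6, 21.6 and 24.7 CPM (-0.94 ± 0.19, adjusted p = 0.0942). Without IL-22 replicate 1 Mttp was called (-1.14, adjusted p = 0.0113).

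DESeq2 called a further set of lower genes. Trpv6, the apical calcium channel, was at 66.7, 112.5 and 68.7 CPM with IL-22 and 41.0, 31.8 and 27.2 CPM with both, and its log2 fold change of -1.30 ± 0.23 was not called in the main fit (adjusted p = 0.0565) but was with total counts in place of TMM, without IL-22 replicate 1 (0.0216) and without combined replicate 1 (0.0422). Axin2, a feedback target of Wnt signalling, was at 24.2, 21.5 and 19.1 CPM against 10.1, 8.62 and 11.2 CPM (-1.11 ± 0.20, adjusted p = 0.0668, and 0.00279 by DESeq2). In both genes the groups were apart. Gsdmc2, a gasdermin C gene, was at 118.7, 99.0 and 114.5 CPM against 63.8, 71.7 and 74.2 CPM (-0.67 ± 0.12, adjusted p = 0.0668, and 0.0363 without the 3 IL-1b libraries). Foxa2, a forkhead transcription factor, was at 17.6, 23 and 18.1 CPM against 12.3, 9.80 and 8.58 CPM (-0.93 ± 0.17, adjusted p = 0.0668, then 0.0322 without IL-22 replicate 1 and 0.0422 without combined replicate 1). A set of 18 genes gathered for their DESeq2 calls holds 9130208D14Rik, called in the main fit too, and leaves out Gsdmc2. All 18 were chosen for being lower, so their shared sign is no result.

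**Figure D3:**
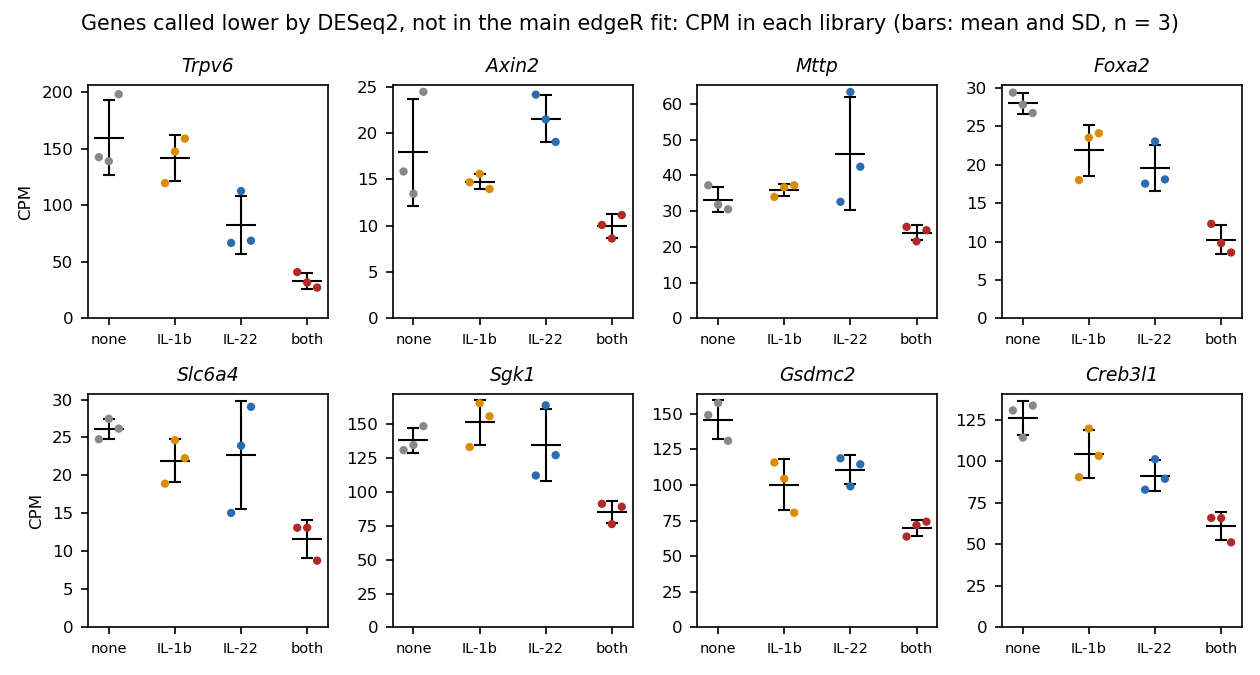
CPM (vertical axis, linear, from 0) of 8 genes called lower by DESeq2 but not in the main edgeR fit, by group on the horizontal axis (none, IL-1b, IL-22, both). Points are libraries and bars the mean and SD of 3 libraries; the combined libraries lie below the IL-22 libraries in every panel, and for Trpv6, Mttp and Slc6a4 the IL-22 libraries are widely spread.

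No gene of IL-1 reception or its early feedback was called at 12 h. Il1r1, the receptor, was at 13.6, 5.98 and 5.09 CPM with IL-22 and 6.46, 4.12 and 7.29 CPM with both (-0.47 ± 0.35, adjusted p = 0.706), and the receptor antagonist gene Il1rn had 0.02 ± 0.08. The immediate feedback genes of NF-kB had small values, with Nfkbia at 0.05 ± 0.08, Nfkbiz at 0.16 ± 0.08 and Tnfaip3 at 0.09 ± 0.05 on the log2 scale. None of the 30 tested genes in the NF-kB list was called, where 0.0786% of all genes were. In 8 (26.7%, against 6.45% of all genes) the groups were wholly apart upwards and in none downwards (against 5.61%). Zc3h12a, the RNase that limits cytokine mRNA, was at 69.0, 80.2 and 77.9 CPM against 97.5, 111.3 and 106.8 CPM (0.48 ± 0.10, adjusted p = 0.0992, and 0.0154 by DESeq2). Tnf was at 29.1, 27.7 and 23.2 CPM against 31.9, 31.2 and 38.6 CPM (0.35 ± 0.13, adjusted p = 0.398).

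No gene of IL-22 signalling or STAT3 feedback was called. Socs3, the STAT3 feedback inhibitor, was at 198, 219 and 211 CPM with IL-22 and 205, 220.3 and 217 CPM with both, while unstimulated libraries held 7.40 to 19.1 CPM. Its log2 fold change was 0.03 ± 0.12 (adjusted p = 0.958). Stat3 had -0.08 ± 0.06, Il22ra1 -0.01 ± 0.07, Il10rb 0.06 ± 0.06 and the fucosyltransferase gene Fut2 0.05 ± 0.05. Of 21 tested STAT3 targets, 4 (19%, against 6.45% of all genes) had groups wholly apart upwards and none downwards, with a median of 0.008. In the IL-22 receptor, JAK and STAT list, 27 genes were tested, with a median of -0.007. Of these, 3 (11.1%, against 6.45% of all genes) were wholly apart upwards and 3 (11.1%, against 5.61%) downwards. The values of both lists miss the threshold and do not show that the levels were the same.

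Apart from Mmp7, no member of an epithelial lineage list was called. Enteroendocrine genes had 6 of 22 tested members (27.3%, against 5.61% of all genes) wholly apart downwards and a median log2 fold change of -0.184, with Insm1, a transcription factor of that lineage, at 10.5, 14.8 and 10.4 CPM with IL-22 and 9.08, 6.27 and 7.51 CPM with both (-0.64 ± 0.19, adjusted p = 0.251). Goblet cell genes had a median of -0.034 over 31 tested members, and Muc2, the main mucin, had -0.07 ± 0.08. Colonocyte genes had a median of -0.021 over 40 members, proliferation genes -0.174 over 35 and stem cell and Wnt genes 0.013 over 22. Of those 22, 4 (18.2%, against 5.61% of all genes) had groups wholly apart downwards and 1 (4.55%, against 6.45%) upwards. Lgr5, the stem cell receptor, was at 4.54, 3.32 and 1.32 CPM against 0.807, 0.588 and 3.43 CPM, and the groups overlapped (adjusted p = 0.693). Interferon-stimulated genes had no call among 38 tested (0.0786% of all genes were called) and a median of -0.078. In a bulk library, fewer cells of a type and less RNA per cell cannot be told apart.

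**Figure D4:**
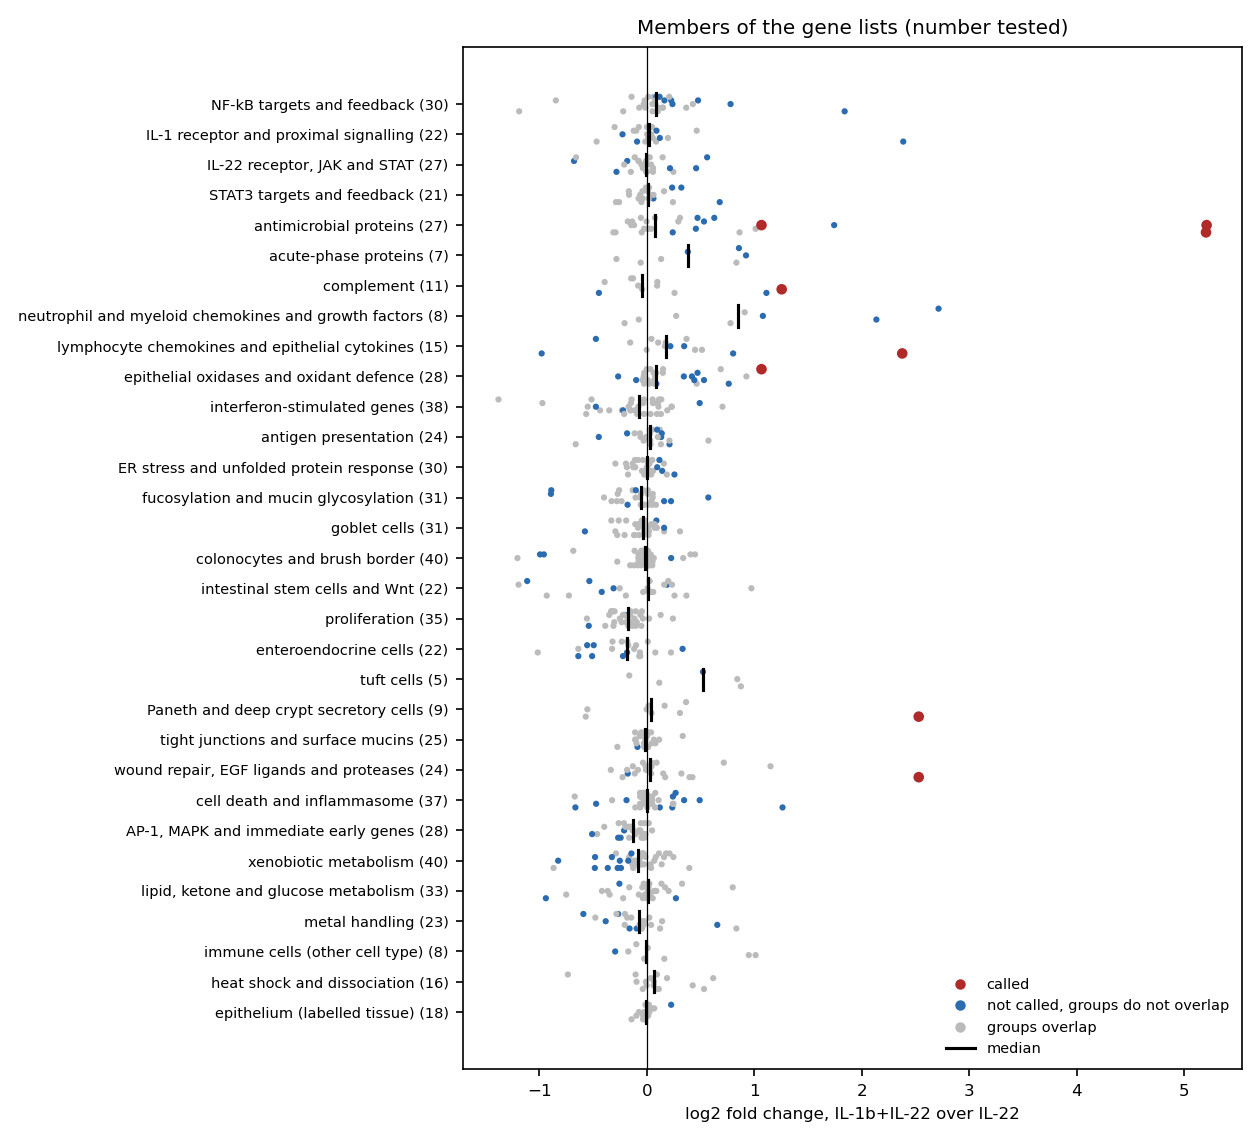
Log2 fold change of the combined group over the IL-22 group (horizontal axis) for each tested member of 31 gene lists with 5 or more tested members (vertical axis, number tested in brackets). Red points were called, blue points were not called but had groups wholly apart, grey points had overlapping groups and black bars are medians; Lcn2 and S100a9 stand alone near 5.2.

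Some high values came from 1 library. Il33, an alarmin gene of the IL-1 family, was at 9.28 and 8.04 CPM in combined replicates 1 and 2 and at 50.2 CPM in replicate 3, against 6.19, 4.43 and 2.26 CPM with IL-22. Its log2 fold change of 2.38 ± 0.65 (adjusted p = 0.205) became 1.02 without that library (adjusted p = 0.669). Krt4, a keratin of stratified epithelium named after its values were seen, was likewise at 2.62 and 3.14 CPM and at 47.6 CPM in replicate 3, against 0.886 to 1.86 CPM with IL-22 (3.81 on the log2 scale, and 1.21 without that library). Tnfaip2, a TNF-responsive gene, was at 12.3, 14.3 and 43.3 CPM with both and at 5.99, 5.09 and 8.11 CPM with IL-22 (1.84 ± 0.45, adjusted p = 0.16). Of the called higher genes, S100a9, Ccl20, Clca3a1 and Clca3b also had their highest combined value in replicate 3, Prl2a1 was equal in replicates 2 and 3 at 24.9 CPM, and Lcn2, C3, Nos2 and Mmp7 had theirs in another library. Without replicate 3 the S100a9 log2 fold change was 4.78 (adjusted p = 0.0185).

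To ask whether IL-1b acted differently with and without IL-22, the same contrast was taken without IL-22, between the 3 IL-1b libraries and the 3 unstimulated libraries, which shares no library with the comparison above. It called 10 genes (0.0715%), all higher. Lcn2, Ccl20, C3 and Nos2 were called in both. All 9 genes raised by IL-1b on top of IL-22 had positive log2 fold changes with IL-1b alone, and both lowered genes had negative ones. The difference between the 2 effects was called for no gene by edgeR's quasi-likelihood test (0%), while 705 genes had an unadjusted p under 0.05 (5.04%) and DESeq2 called 4 (0.0286%), Lbp, Adh6a, Clca4b and Sgk1.

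**Figure D5:**
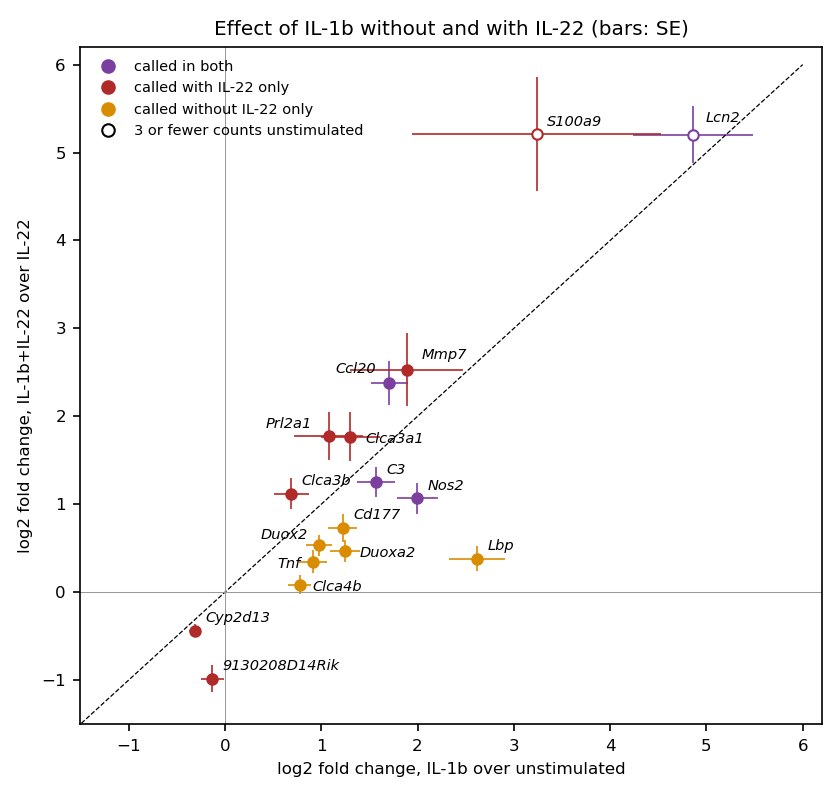
Log2 fold change of IL-1b added to IL-22 (vertical axis) against that of IL-1b alone over unstimulated (horizontal axis) for the 17 genes called in either; bars are SE and the dashed line marks equal values. Open points had 3 or fewer unstimulated counts, so their horizontal values are imprecise. Lbp lies far below the line, at 0.38 against 2.62.

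Nos2 and Lbp had the smaller value with IL-22 present. The log2 fold change of Nos2 was 2.00 with IL-1b alone and 1.07 on top of IL-22, a difference of -0.93 ± 0.28 (unadjusted p = 0.00517, adjusted p = 0.924). Lbp, the acute-phase protein that carries lipopolysaccharide, was at 1.43, 1.09 and 0.948 CPM unstimulated and 5.15, 9.97 and 6.65 CPM with IL-1b. With IL-22 it was at 32.8, 34.8 and 32.1 CPM and with both at 45.8, 43.5 and 40.3 CPM. The groups were apart in both settings, but the log2 fold change was 2.62 without IL-22 and 0.38 with it. Their difference of -2.24 ± 0.33 was not called in the main fit (adjusted p = 0.124), was called by DESeq2 (adjusted p = 0.00138) and was called without IL-1b replicate 1 (-2.43, adjusted p = 0.0189).

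Ccl20, also called with IL-1b alone, had the larger value with IL-22 present, at 2.38 against 1.71, a difference of 0.67 ± 0.32 (unadjusted p = 0.0585, adjusted p = 0.973). C3 had 1.57 without and 1.25 with IL-22 (difference -0.32 ± 0.26, adjusted p = 0.979). The remaining genes called with IL-1b alone and not on top of IL-22 had smaller values there. Tnf had 0.91 without and 0.35 with IL-22, Duox2 0.98 and 0.53, Duoxa2 1.24 and 0.47, Cd177 1.22 and 0.73 and Clca4b 0.78 and 0.09. These 5 were chosen by the first value of each pair, and none of their differences was called by edgeR's quasi-likelihood test. Clca4b was already at 453, 475 and 405 CPM with IL-22, against 97.8, 63.5 and 95.8 CPM unstimulated. For S100a9 and Lcn2 the unstimulated libraries held 1 and 2 counts, and the ratios of summed counts with IL-1b alone were 12.7 (95% interval 1.91 to 540) and 34.7 (9.25 to 292, both for counting error only). These intervals span the ratios of 39.8 and 37.5 on top of IL-22, so the depth does not tell the 2 effects apart for these genes. IL-1b replicate 1, which held most of the Ptprc and Laptm5 counts given above, had the lowest Lcn2 and Cd177 levels of its group (2.94 and 123.3 CPM). The same library had the highest Cxcl2 and Cxcl5 levels of its group (3.31 and 22.6 CPM). Combined replicate 3 had the most Laptm5 and the most S100a9 counts of its group (25 and 78). Whether these levels are linked to leukocyte transcripts was not tested.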

How the data were processed

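The deposited table holds whole-number counts per gene symbol for 12 libraries of polyadenylated RNA (3 per group), which the authors made. The submitters' processing notes name build mm10, while alignment, counting, strand and annotation are not given in the sources read. Counts were fitted with edgeR 4.0.16 (filterByExpr, TMM, glmQLFit, glmQLFTest) in R 4.3.3 over all 12 libraries, with 1 mean per group and 8 residual degrees of freedom. SE is the log2 fold change divided by the root of the F statistic. DESeq2 1.42.0 was an alternative, with others of scaling, filter, libraries and replicate block. Counts were also simulated as independent draws for each library. Each gene had its fitted dispersion and the same mean in every group, apart from the planted changes. On these the test for IL-1b added to IL-22 called 83% of 100 genes changed 2-fold and 62% of 100 changed 1.5-fold. It also called 9 of 13643 unchanged genes, of 13837 tested. The draws hold no shifts shared by many genes of a library, so these shares may not hold for the real libraries.

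Members, gene lists and tests were chosen with earlier results of these data known. Named genes are the called genes at 1 CPM or more with groups apart and no clone-type name (at most 12 in each direction). To these come at most 4 called members of every list, or else its member with the smallest p, and a fixed set. Of the 67 so named, 63 were placed by symbol in GENCODE M21 (GRCm38), and 17 share exon bases with another gene, so their counts are uncertain. Genes outside this rule were named after their values were seen. No mitochondrially encoded gene is among the symbols analysed here. Same-numbered libraries did not deviate together (correlations from -0.188 to -0.064 over the 3 pairs compared), so the numbers were not taken to pair samples.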

Additional observations from a re-analysis of the deposited data

Results flagged for a closer look

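Snap25, a synaptic vesicle fusion gene that enteroendocrine cells also express, had fitted effects of IL-1b of opposite sign with and without IL-22, neither of them called. It was at 3.51, 4.21 and 3.40 CPM with IL-22 and 1.61, 1.96 and 2.36 CPM with both cytokines, a log2 fold change of -0.90 ± 0.26 (SE, adjusted p = 0.252). Without IL-22 the log2 fold change of IL-1b was 0.40 ± 0.23 (SE, adjusted p = 0.601). The difference between the 2 effects was -1.30 on the log2 scale, with an unadjusted p of 0.0021 and an adjusted p of 0.924 in edgeR's quasi-likelihood test over all genes. It is therefore not a call.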

How the results depend on the processing

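No called gene changed direction under any alternative run, and Lcn2 (5.08 to 5.44 on the log2 scale), Ccl20 (2.08 to 2.61) and S100a9 (4.61 to 5.63) were called in all 16. The counts of calls moved more. For IL-1b added to IL-22 the main fit called 11 genes, 9 higher, 2 lower and 9 by 2-fold or more. DESeq2's Wald test called 85, 28, 57 and 28, and edgeR without a filter on low counts 336, 120, 216 and 80 of 24371 genes. Total counts gave 5 lower genes. The replicate block gave 7 called and 1 lower, losing Clca3a1, Nos2, Prl2a1 and Cyp2d13 (adjusted p from 0.0731 to 0.0909). The 6 compared libraries alone, which leave fewer degrees of freedom, gave 6 called, 0 lower and 5 by 2-fold. Leaving out 1 library gave 3 to 72 called, 3 to 20 higher, 0 to 52 lower and 3 to 26 by 2-fold. The cause was not tested. Of the alternatives chosen after seeing the data, leaving out the 3 IL-1b libraries gave 8 called and 1 lower, and keeping only genes under 0.1 count per exon base gave 8 called and 1 lower. The interaction called 0 genes in the main fit, 4 by DESeq2, 50 without a filter and 0 to 1 without 1 library. IL-1b alone called 10, against 32 by DESeq2, 212 without a filter, 9 to 28 without 1 library and 5 among genes under 0.1 count per exon base.

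Depth limits the low genes most, since 3 counts come to between 0.499 and 0.665 CPM a library. Under other scalings the median log2 fold change of all genes lay between -0.003 and 0.017. Whether counts of abundant genes level off, and so limit the fold changes read from them, was not tested.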

Other observations

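Some gene groups with no list of their own had values in 1 direction, and were gathered after the values were seen, so no test is given. Gsdmc2 was already named as the member of a list with the smallest p. All 5 gasdermin C genes had negative log2 fold changes and 4 had groups wholly apart downwards (against 5.61% of all genes tested), from Gsdmc2 at -0.67 to Gsdmcl-ps at -0.11. All 11 circadian clock genes read had negative values and 5 had groups wholly apart downwards (against the same 5.61%). Per2, a clock repressor, was at 45.6, 60.0 and 52.8 CPM with IL-22 and 38.9, 33.9 and 34.5 CPM with both (-0.56 ± 0.12, adjusted p = 0.0959, and 0.0288 without IL-22 replicate 1), against a mean of 89.5 CPM unstimulated. Clock itself had -0.01 ± 0.07.

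Among genes with higher values, Plet1, a surface protein of colon progenitors, was at 25.2, 29.0 and 9.62 CPM with IL-22 and 69.8, 53.5 and 60.5 CPM with both (1.54 ± 0.32, adjusted p = 0.0959). Plet1 shares exon bases with the antisense gene Plet1os, which had 1.49 ± 0.31, and the reads of the pair cannot be told apart. Mapk11, a p38 kinase gene, was at 31.8, 26.1 and 24.1 CPM against 36.1, 47.8 and 58.1 CPM (0.79 ± 0.15, adjusted p = 0.0836, then 0.0292 without IL-22 replicate 1 and 0.0131 without combined replicate 1). The list of AP-1, MAPK and immediate early genes went the other way, with a median log2 fold change of -0.130 over 28 tested. Of these, 4 (14.3%, against 5.61% of all genes) had groups wholly apart downwards and 0 upwards (against 6.45%). Pde11a, a phosphodiesterase gene, was at 11.2, 7.97 and 9.05 CPM against 18.2, 21.9 and 20.2 CPM (1.09 ± 0.22, adjusted p = 0.0942, and 0.0486 without IL-22 replicate 1), and at 1.33 CPM on average in unstimulated libraries.

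Counts too low to be tested included Cxcl3, a neutrophil chemokine, with 4, 4 and 2 counts with IL-22 and 7, 10 and 28 with both. Il1rl2, the receptor for IL-36, had 6, 3 and 5 counts with IL-22 and 0, 0 and 1 with both, a ratio of 0.0711 (95% interval 0.00168 to 0.468, for counting error only).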
